A study of Mus musculus with 12 samples.

Results

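The immediate early genes described here are Fos, Fosb, Jun, Junb, Egr1, Egr2, Ier2, Ier3, Dusp1 and Nr4a1. They were named as a set by symbol, with earlier results of these data known, and are 10 of the 18820 genes that the array's annotation names through a probe set of their own. Each had 1 probe set, and all 10 passed the filter on dim genes (a mean intensity above 60.1, which is the 40th percentile over probe sets). This filter kept 12337 genes for testing. Nr4a1 passed through its treated arrays, because it lay under 60.1 on 5 of 12 arrays, among them all 4 untreated ones. Affymetrix arrays were hybridised with RNA of EML1 cells, a haematopoietic progenitor line. The line was derived by infecting marrow cells of male BDF1 mice with LRARalpha403SN, a retroviral vector that every group therefore carries. Cells held either TEL-AML1, the fusion of the transcription factor genes ETV6 and RUNX1, in the lentiviral vector pWPI, or pWPI alone. Cells with either vector were taken untreated, on day 5 and on day 7 of IL7 and FLT3L, with 2 arrays per group: TEL-AML1 untreated, empty vector untreated, TEL-AML1 day 5, empty vector day 5, TEL-AML1 day 7 and empty vector day 7. The question behind the comparisons was which genes TEL-AML1 alters before and during this treatment. The labels' culture protocol for B-cell differentiation has 50000 EML1 cells laid on a confluent layer of OP9 stromal cells, with IL7 at 10 ng/ml, FLT3L at 80 ng/ml and another medium and serum than in the maintenance culture, so treated and untreated cells differ in all of these together. The labels do not say whether transduced cells were a clone or a pool, nor whether replicates were separate cultures, so each p-value reflects only how far these particular arrays scatter, and that scatter may be technical.

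Immediate early genes are transcribed within minutes of a growth factor, cytokine, adhesion or stress signal, without new protein synthesis, and most of their mRNAs decay quickly. MAP kinases act on their promoters through serum response factor, which binds the CArG box beside its ETS-family partners, and through CREB, which binds the cyclic AMP response element (CRE). Fos and Jun proteins pair as the AP-1 transcription factor, the Egr proteins are zinc finger factors, Nr4a1 is an orphan nuclear receptor, Dusp1 is a phosphatase that switches MAP kinases off, and Ier3 is a regulator of cell survival that is induced by NF-kB in many cells.

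Promoter windows of 300 bases, from 250 before to 50 after the start site, were read from RefSeq on GRCm38.p6. At least 1 window entered the search for 8 of the 10 members (12 windows in all). Those of Ier3, Dusp1, Nr4a1 and Fosb are shown because the results below turn on these genes. They lie at chr17:35821463-35821762 on the plus strand (Ier3), chr17:26508423-26508722 on the minus strand (Dusp1), chr15:101266596-101266895 on the plus strand (Nr4a1) and chr7:19309996-19310295 on the minus strand (Fosb). Capitals mark the CRE core TGACG on either strand, the full CRE TGACGTCA, in which cores of both strands overlap, and the NF-kB site.
Ier3: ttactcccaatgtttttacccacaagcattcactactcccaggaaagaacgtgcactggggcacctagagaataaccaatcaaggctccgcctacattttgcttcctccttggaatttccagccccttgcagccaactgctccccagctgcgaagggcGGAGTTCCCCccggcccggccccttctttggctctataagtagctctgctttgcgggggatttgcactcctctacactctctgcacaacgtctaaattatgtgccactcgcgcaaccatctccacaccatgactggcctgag
Dusp1: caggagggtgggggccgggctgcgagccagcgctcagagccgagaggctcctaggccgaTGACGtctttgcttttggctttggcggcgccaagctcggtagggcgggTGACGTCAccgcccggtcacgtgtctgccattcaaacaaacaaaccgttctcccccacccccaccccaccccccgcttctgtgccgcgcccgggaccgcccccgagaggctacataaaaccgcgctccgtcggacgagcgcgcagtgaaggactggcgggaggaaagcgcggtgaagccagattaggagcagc
Nr4a1: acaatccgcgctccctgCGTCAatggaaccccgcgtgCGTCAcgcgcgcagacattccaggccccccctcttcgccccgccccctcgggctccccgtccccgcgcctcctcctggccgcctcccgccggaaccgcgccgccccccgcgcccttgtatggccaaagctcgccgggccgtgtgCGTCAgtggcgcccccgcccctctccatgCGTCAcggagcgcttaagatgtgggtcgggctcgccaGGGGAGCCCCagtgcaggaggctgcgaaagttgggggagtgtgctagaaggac
Fosb: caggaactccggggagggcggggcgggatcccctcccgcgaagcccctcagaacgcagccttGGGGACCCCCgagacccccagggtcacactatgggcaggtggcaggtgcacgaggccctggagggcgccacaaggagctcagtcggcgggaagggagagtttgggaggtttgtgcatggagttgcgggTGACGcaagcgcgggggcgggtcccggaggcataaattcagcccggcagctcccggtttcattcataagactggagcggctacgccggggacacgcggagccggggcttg
The Nr4a1 window held 4 CRE cores, all on its other strand, and the Dusp1 window held a full CRE and a separate core. The Ier3 window held no CRE core and an NF-kB site. Over all 12 windows of the members, a CRE core was found in 8 (6 members), against 20.8% of the 32851 promoter windows in the table, and a full CRE in 1 (Dusp1), against 1.79%. Among members with a window, the CArG box was found in the 4 windows of Egr2 only, 3 of which overlap, against 1.63% of all windows. No window of Egr1 or Ier2 entered this search, which does not mean that RefSeq holds none. Whether their promoters hold any of these motifs, the CArG box included, was not tested. The AP-1 site TGANTCA and the EGR site GCGTGGGCG, present in 7.81% and 0.612% of all windows, were found in none of the members' windows. The NF-kB site, in 4.51% of all windows, was found in those of Fos, Fosb, Ier3 and Nr4a1, and the RUNX site TGTGGT, in 16.8%, in none of them. These last 2 motifs were added after the values were seen. All motifs were searched on both strands, and a match is a description of the letters in this window.

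Array medians lay between 68.1 and 72.9 in intensity, and the number of arrays, 2 per group, limits the precision of every value. Of 12 listed progenitor markers, 11 had a probe set and 10 were tested. Some were bright on all 12 arrays: the stem cell factor receptor gene Kit at 2186 to 2744, Cd34 at 1927 to 2565, Myb at 1687 to 2222 and Ptprc, which encodes CD45, at 654 to 983. Flt3, the receptor gene of FLT3L and also on the progenitor list, lay at 45.3 to 55.9, below the filter. So did Cd79a, a B-cell receptor component, at 39.5 to 49.1. Of 29 OP9 stroma markers, 28 were on the array and 23 were tested. Their mean level on the log2(intensity + 16) scale was 6.59 and 6.50 in TEL-AML1 untreated cells and 6.52 and 6.47 in empty vector untreated cells, against 7.97 and 7.17 and 8.23 and 7.93 for the same vectors at day 5, and 6.62 and 7.26 and 6.87 and 7.69 at day 7 (replicate 1 before replicate 2). Most treated arrays thus held more stroma transcript than untreated ones, in unequal amounts, and replicate 1 of TEL-AML1 day 7 lay near the untreated level. Of the list, Pdgfrb was bright in untreated cells as well, with group means of 1216 with TEL-AML1 and 904 with the empty vector. In such bulk samples, fewer cells of a type and less RNA per cell cannot be told apart.

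**Figure D1:**
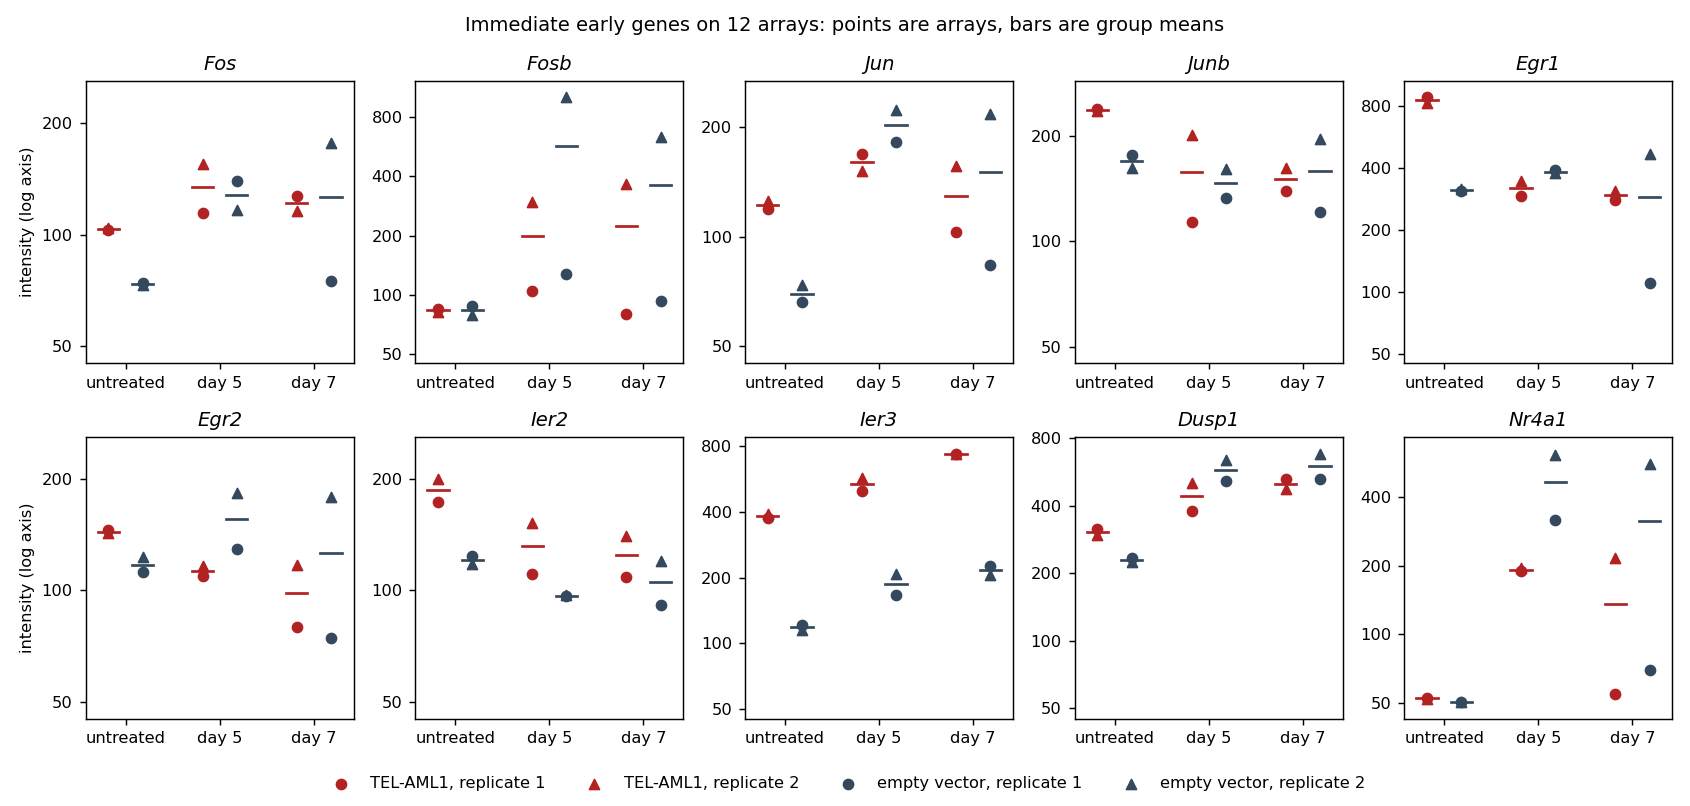
Intensity of each immediate early gene (log axes, 1 panel per gene) by condition, with TEL-AML1 in red left of the empty vector in blue; circles are replicate 1, triangles replicate 2 and bars group means (n = 2 arrays). Ier3 is the gene whose TEL-AML1 arrays lie above the empty vector arrays in every condition without exception, and Fosb and Nr4a1 are those whose triangles stand far above their circles in several treated groups.

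The order of the 6 groups differed from gene to gene, as the plot of intensities by condition shows. Of the 50 pairs of neighbouring groups in these orders, 5 per gene, the arrays of 18 did not overlap. No share over all genes stands beside this count, and the same arrays set the orders, so it is a description only. Ier3 had the clearest order, with 4 of its 5 neighbours apart: TEL-AML1 day 7, TEL-AML1 day 5, TEL-AML1 untreated, then empty vector day 7 and day 5, which overlapped, and empty vector untreated. Egr1 had 3 neighbours apart and was brightest in TEL-AML1 untreated cells. Its gap between empty vector untreated and TEL-AML1 day 7 cells was narrow, 310 against 309 at the nearest arrays. Egr2 had none apart, Junb only the leading pair, TEL-AML1 untreated over empty vector untreated, and Ier2 only TEL-AML1 untreated over TEL-AML1 day 5. Fos, Jun, Dusp1 and Nr4a1 each had 2 neighbours apart, and in all 4 genes the empty vector untreated group was lowest and apart from the next, TEL-AML1 untreated. In Nr4a1 that last gap was small, 52.8 and 52.3 in TEL-AML1 cells against 50.4 and 50.8 in empty vector cells, all below the filter. Fosb lay level in untreated cells of both vectors, with the treated groups overlapping each other.

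TEL-AML1 cells held more Ier3 transcript than empty vector cells at every time: untreated, day 5 and day 7. Ier3 had 376 and 392 in TEL-AML1 untreated cells, against 122 and 115 in empty vector untreated cells. At day 5 the values were 502 and 574 in TEL-AML1 cells and 167 and 208 in empty vector cells, and at day 7 they were 740 and 739 in TEL-AML1 cells and 226 and 205 in empty vector cells. All 6 TEL-AML1 arrays lay above all 6 empty vector arrays. On the log2(intensity + 16) scale, which understates the change of dim genes, the difference was 1.57 ± 0.10 untreated, 1.45 ± 0.10 at day 5 and 1.71 ± 0.10 at day 7 (± standard error), with limma adjusted p-values of 3.28e-05, 5.77e-05 and 1.48e-05 over 12337 genes. Over the mean of the 3 conditions it was 1.58 ± 0.060 (limma adjusted p = 1.34e-07). In each of these 4 comparisons Ier3 ranked 10 by p among all genes tested. Taken within replicate numbers, the 6 differences ran between 1.40 and 1.77. Ier3 passed in all alternative settings tried for these comparisons, with values between 1.26 and 1.77 over the single conditions. Some markers of cell type also differed between vectors: of 10 tested progenitor markers, TEL-AML1 cells had 3 called higher when untreated, 1 on day 5 and 4 on day 7, and of 7 monocyte and macrophage markers 1, 2 and 1. Of all genes, 2.74%, 3.04% and 5.28% were called higher in these comparisons. The part of these marker differences in the Ier3 difference was not tested.

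Ier3 also rose with treatment, while its difference between vectors did not change detectably. Against untreated cells of the same vector it was higher by 0.92 ± 0.10 at day 7 in TEL-AML1 cells (limma adjusted p = 0.000729), by 0.59 ± 0.10 at day 5 in empty vector cells (limma adjusted p = 0.00785) and by 0.78 ± 0.10 at day 7 in empty vector cells (limma adjusted p = 0.00202). At day 5 in TEL-AML1 cells it was 0.47 ± 0.10 higher and missed the threshold (limma adjusted p = 0.0617). The TEL-AML1 response minus the empty vector response was -0.12 ± 0.15 at day 5 and 0.13 ± 0.15 at day 7 (limma adjusted p = 0.841 and 0.807). The day 5 call in empty vector cells ended without replicate 2 of the empty vector untreated group (0.45, limma adjusted p = 0.0819).

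In untreated cells, Ier3 was the only member of the 10 to pass the test between TEL-AML1 and the empty vector. Egr1, the zinc finger factor that many growth factors induce, had 884 and 828 in TEL-AML1 cells, against 310 and 317 in empty vector cells. Its arrays did not overlap, and its difference of 1.40 ± 0.44 missed the threshold (limma adjusted p = 0.0843). Jun had 119 and 125 in TEL-AML1 cells, against 66.1 and 73.5 in empty vector cells (0.69 ± 0.31, limma adjusted p = 0.264). Ier2, a nuclear regulator of transcription, had 174 and 200 in TEL-AML1 cells, against 124 and 118 in empty vector cells (0.56 ± 0.16, limma adjusted p = 0.0542). Junb had 238 and 235 in TEL-AML1 cells, against 176 and 162 in empty vector cells (0.45 ± 0.24, limma adjusted p = 0.365). All 4 of these genes showed their TEL-AML1 arrays above their empty vector arrays. The same held for Fos with 103 and 104 in TEL-AML1 cells, against 74.2 and 72.9 in empty vector cells, and for Dusp1 with 314 and 296 in TEL-AML1 cells, against 234 and 224 in empty vector cells. Egr2, the close relative of Egr1, had 145 and 143 in TEL-AML1 cells, against 112 and 123 in empty vector cells. Fosb was the member whose untreated arrays overlapped, at 85.2 and 82.0 in TEL-AML1 cells and 87.8 and 79.1 in empty vector cells.

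By the test, 1 of 10 passed, against 8.90% of all genes, and 4 of 10 had an unadjusted p under 0.05, against 19.1% of all genes. By arrays, 9 of 10 members had both TEL-AML1 untreated arrays above both empty vector untreated arrays, against 23.9% of all genes tested. Nr4a1 is 1 of these 9, and its untreated values all lay below the filter. The median difference of the 10 was 0.43, against -0.0079 over all genes. The fit shares 1 spread per gene over all 6 groups, and the untreated arrays of a group lay closer together than the treated ones. The main fit called 1098 genes in all. With only the 4 untreated arrays in the fit, 8 members passed (all but Fosb and Nr4a1) and 2374 genes in all, and with array weights 6 members and 2606 genes. With replicate numbers blocked inside each condition 4 members passed (Jun, limma adjusted p = 0.0274, Egr1 0.0324, Ier2 0.0110 and Ier3) and 1491 genes in all.

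**Figure D2:**
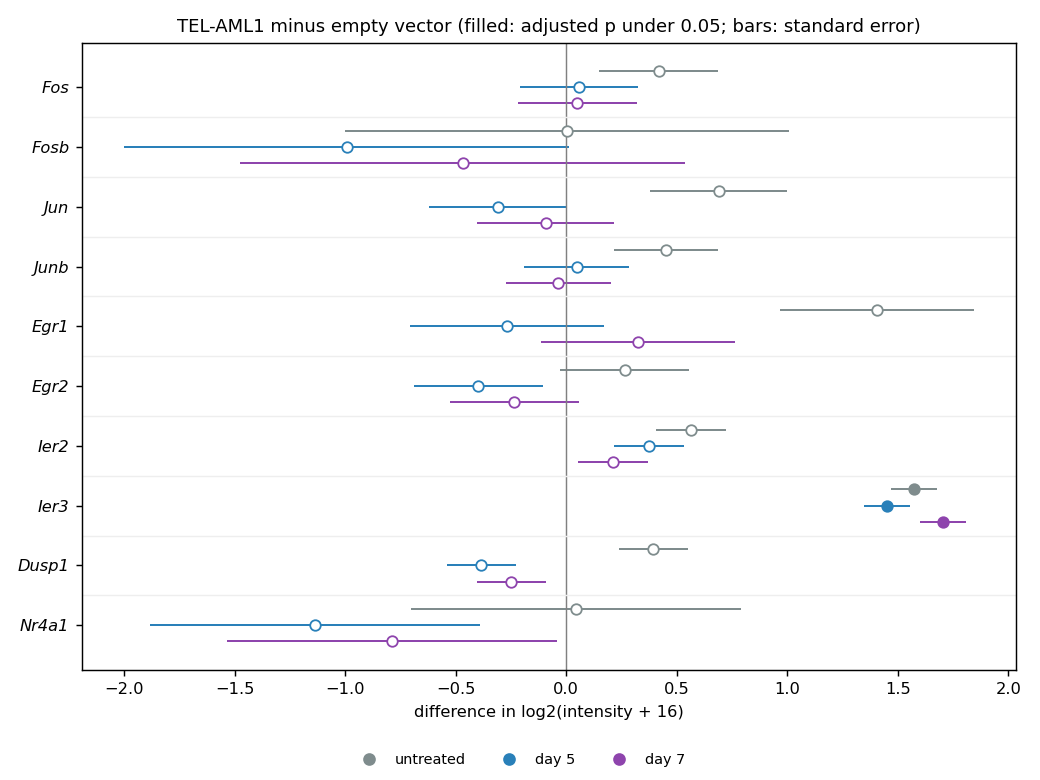
TEL-AML1 minus empty vector for each immediate early gene, as a difference in log2(intensity + 16) with its standard error from limma; grey is untreated, blue day 5 and purple day 7, and filled points passed an adjusted p of 0.05. Only the 3 Ier3 points are filled, at 1.57, 1.45 and 1.71, and the untreated points of all 10 genes lie at or above 0.

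At day 5 and day 7 the members did not lie on the same side. Only Ier3 passed at day 5 (1 of 10, against 7.32% of all genes) and at day 7 (1 of 10, against 11.3%), and 3 and 1 members had an unadjusted p under 0.05, against 20.8% and 24.5% of all genes. At day 5, Ier2 and Ier3 had both TEL-AML1 arrays above both empty vector arrays, and Jun, Egr1, Egr2, Dusp1 and Nr4a1 had both below, 7 of 10 members without overlap, against 46.6% of all genes. Nr4a1 had 189 and 195 in TEL-AML1 day 5 cells, against 318 and 612 in empty vector day 5 cells (-1.14 ± 0.75, limma adjusted p = 0.433). Dusp1 had 376 and 506 in TEL-AML1 cells, against 517 and 638 in empty vector cells (-0.38 ± 0.16, limma adjusted p = 0.191). Nr4a1 and Dusp1 were lower in TEL-AML1 cells at day 5 on every array, but not past the threshold. Stroma markers were also lower in these TEL-AML1 arrays, all but 1 of 23 by group mean, and the part of that in the result was not tested. With replicate numbers blocked inside each condition, 3 members passed at day 5: Ier3, Nr4a1 (limma adjusted p = 0.0224) and Ier2 (limma adjusted p = 0.0495). At day 7, Ier3 was the 1 member whose arrays did not overlap between vectors, against 50.0% of all genes.

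The day 7 comparison rested on which empty vector array entered it. Without replicate 1 of the empty vector day 7 group, 4 members passed, Ier3 and, lower in TEL-AML1 cells, Egr1, Egr2 and Nr4a1 (1110 genes in all, against 1392 with both). Without its replicate 2, 3 passed, Ier3, Fos and Egr1, all higher in TEL-AML1 cells (1730 genes in all). Egr1 turned with that choice: -0.65 without replicate 1 (limma adjusted p = 0.00720) and 1.29 without replicate 2 (limma adjusted p = 0.000236), against 0.32 ± 0.44 with both.

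Over the mean of the 3 conditions, 2 of 10 members passed, Ier3 and Ier2, against 22.6% of all genes. Ier2 averaged 0.38 ± 0.091 higher with TEL-AML1 (limma adjusted p = 0.0124). Its values were 111 and 152 in TEL-AML1 day 5 cells, against 96.2 and 96.8 in empty vector day 5 cells, and 109 and 140 in TEL-AML1 day 7 cells, against 91.1 and 120 in empty vector day 7 cells. The arrays overlapped at day 7 and not in the other conditions, and within replicate numbers all 6 differences were above 0 (0.18 to 0.69). The Ier2 call ended when both day 5 arrays numbered 2 were left out, an alternative added after the data were seen (limma adjusted p = 0.0543). With the block within each condition, Nr4a1 also passed in this mean, at -0.63 (limma adjusted p = 0.0134). Without replicate 2 of the empty vector day 7 group, Fos and Egr1 passed as well, and without its replicate 1 Nr4a1 did (-1.09, limma adjusted p = 0.0237).

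In empty vector cells, Jun, Ier3 and Dusp1 rose at day 5. Nr4a1 was called as well, which makes 4 of 10 members, against 15.6% of all genes, but it passed the filter on dim genes only through its treated arrays, and with no filter its call ended (limma adjusted p = 0.0544). Dusp1, the MAP kinase phosphatase, had 517 and 638 at day 5, against 234 and 224 in untreated cells (1.27 ± 0.16, limma adjusted p = 0.00129). Jun had 182 and 223 at day 5, against 66.1 and 73.5 in untreated cells (1.34 ± 0.31, limma adjusted p = 0.0195). Nr4a1 had 318 and 612 at day 5, against 50.4 and 50.8 in untreated cells, both below the filter (2.78 ± 0.75, limma adjusted p = 0.0321). In each of these genes both day 5 arrays lay well above both untreated arrays. Fosb had 128 and 1017 at day 5, against 87.8 and 79.1 in untreated cells. Its day 5 arrays were far apart, and the difference of 1.95 ± 1.01 missed the threshold (limma adjusted p = 0.230). Fos had 140 and 117 at day 5, against 74.2 and 72.9 in untreated cells (0.68 ± 0.27, limma adjusted p = 0.115). Egr1, at 392 and 378 against 310 and 317, and Egr2, at 129 and 183 against 112 and 123, were slightly higher at day 5 on both arrays. Junb, at 133 and 161 against 176 and 162, and Ier2, at 96.2 and 96.8 against 124 and 118, were lower. All 10 members had arrays that did not overlap, 8 higher and 2 lower, against 57.6% of all genes, and 5 of 10 had an unadjusted p under 0.05, against 29.6% of all genes.

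At day 7 in empty vector cells, Ier3 and Dusp1 rose (2 of 10, against 15.5% of all genes, with 4 of 10 at an unadjusted p under 0.05, against 31.4%). Dusp1 had 523 and 676 at day 7, against 234 and 224 in untreated cells (1.32 ± 0.16, limma adjusted p = 0.00106). Nr4a1 had 69.7 and 558 at day 7 (1.74 ± 0.75, limma adjusted p = 0.141), Jun had 83.8 and 217 (0.83 ± 0.31, limma adjusted p = 0.0970) and Fosb had 93.0 and 631 (1.42 ± 1.01, limma adjusted p = 0.371). In these 3 genes replicate 2 alone was far above the untreated arrays. In all, 6 members had both day 7 arrays above both untreated arrays and none had both below, against 62.2% of all genes in either direction. Between day 7 and day 5 in empty vector cells no member passed, 0 members had an unadjusted p under 0.05, and limma called 0% of all genes (796 with an unadjusted p under 0.05).

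**Figure D3:**
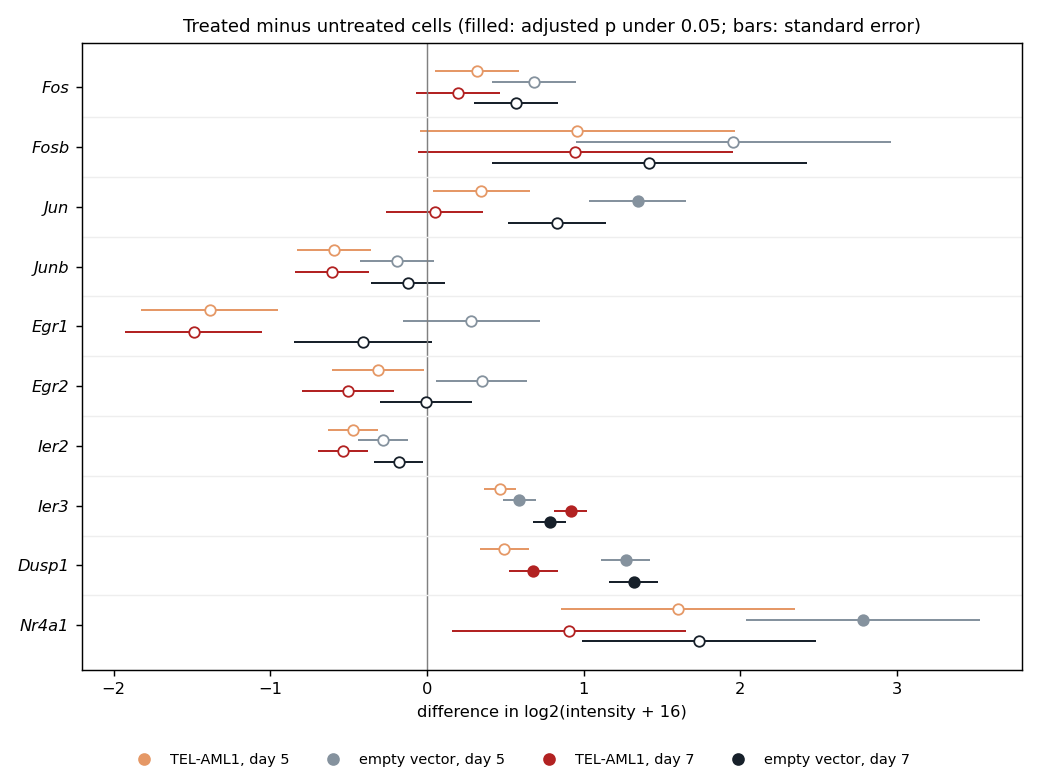
Treated minus untreated cells for each immediate early gene, as a difference in log2(intensity + 16) with its standard error from limma; orange is TEL-AML1 day 5, grey-blue empty vector day 5, red TEL-AML1 day 7 and black empty vector day 7, and filled points passed an adjusted p of 0.05. Ier3 and Dusp1 lie to the right in all 4 comparisons, Nr4a1 reaches 2.78 in empty vector cells at day 5, and the TEL-AML1 points of Egr1 lie at -1.39 and -1.49.

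Stroma transcripts rose in the same comparison: 19 of 23 stroma markers passed in empty vector cells at day 5, against 15.6% of all genes, and 2 at day 7, against 15.5%. Some of the 23, among them Sparc at 52.1 to 56.2 on the untreated arrays, lay under the filter there and passed it through treated arrays. In TEL-AML1 cells limma called 0 at either time, against 1.60% and 7.85% of all genes. An unadjusted p under 0.05 was found for 19 at day 5 and 1 at day 7, against 14.8% and 22.6% of all genes. Fn1, the fibronectin gene, had 2249 and 1576 in empty vector day 5 cells, against 58.8 and 56.4 in empty vector untreated cells, which is below the filter. Whether the RNA of stroma cells contributes to Jun, Dusp1 or Nr4a1 on the treated arrays was not tested. The day 5 calls of Jun and Nr4a1 were not stable to the loss of an array. That of Jun ended without either empty vector untreated array (limma adjusted p = 0.102 and 0.114) or without replicate 2 of day 5 (0.115). That of Nr4a1 ended without any of the 4 arrays compared (limma adjusted p = 0.0566 to 0.194) and with a trended and robust variance (0.0704). At day 7, leaving out replicate 1 of the empty vector group brought 6 calls, Ier3, Dusp1, Fos, Jun, Nr4a1 and Egr1 (623 genes in all, against 1910 with both), and Egr1 turned: it stood at 0.56 without replicate 1 (limma adjusted p = 0.0267) and at -1.38 without replicate 2 (limma adjusted p = 0.000105), against -0.41 ± 0.44 with both. Leaving out that replicate 2 also gave Jun and Egr1 as lower at day 7 than at day 5 (-1.13 and -1.66, limma adjusted p = 0.0469 and 0.00113).

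In TEL-AML1 cells, no member passed at day 5 (0 of 10, against 1.60% of all genes). An unadjusted p under 0.05 was found for 5 of 10, against 14.8% of all genes. At day 7, Ier3 and Dusp1 rose (2 of 10, against 7.85% of all genes, again with 5 of 10 at an unadjusted p under 0.05, against 22.6%). Dusp1 had 524 and 473 in TEL-AML1 day 7 cells, against 314 and 296 in TEL-AML1 untreated cells (0.68 ± 0.16, limma adjusted p = 0.0278). This call ended without any of the 4 arrays compared (limma adjusted p = 0.0713 to 0.185). Egr1 was lower in treated TEL-AML1 cells, with 291 and 345 at day 5 and 280 and 309 at day 7, against 884 and 828 in untreated cells. All 4 treated arrays lay under both untreated arrays, and the differences of -1.39 ± 0.44 and -1.49 ± 0.44 missed the threshold (limma adjusted p = 0.192 and 0.0673). Ier2, with 111 and 152 at day 5 and 109 and 140 at day 7, against 174 and 200 untreated, differed by -0.47 ± 0.16 and -0.53 ± 0.16 (limma adjusted p = 0.216 and 0.0683). Junb had 113 and 201 at day 5 and 139 and 162 at day 7, against 238 and 235 untreated, and missed the threshold as well (limma adjusted p = 0.276 and 0.156).

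Nr4a1 had 189 and 195 in TEL-AML1 cells at day 5, against 52.8 and 52.3 untreated (1.60 ± 0.75, limma adjusted p = 0.353). At day 7 its TEL-AML1 arrays held 54.8 and 217, the lower of them at the untreated level. Fosb had 104 and 296 at day 5 and 80.3 and 366 at day 7, against 85.2 and 82.0 untreated. Jun had 169 and 151 at day 5 and 103 and 156 at day 7, against 119 and 125 untreated, and Fos had 115 and 155 at day 5 and 127 and 116 at day 7, against 103 and 104 untreated. Egr2 had 109 and 116 at day 5 and 79.5 and 117 at day 7, against 145 and 143 untreated. Counted by arrays, 6 members lay higher and 4 lower at day 5 without overlap (against 51.7% of all genes in either direction), and 4 higher and 4 lower at day 7 (against 56.7%). Between day 7 and day 5 no member passed, limma called 0% of all genes (987 with an unadjusted p under 0.05), and Ier3 was the member with such a p.

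The comparisons with untreated cells share their untreated arrays with the vector comparison in untreated cells, so their values are set side by side here without a further test. The difference between the vectors' responses was fitted directly. At day 5 no member passed (0 of 10, against 0.0324% of all genes), with 3 at an unadjusted p under 0.05, against 7.69% of all genes: Dusp1 at -0.78 ± 0.22, Egr1 at -1.67 ± 0.62 and Jun at -1.0 ± 0.44. The limma adjusted p-values were 0.565, 0.609 and 0.646. All 10 response differences were below 0, with a median of -0.72, against 0.027 over all genes. The share of all genes below 0 was not counted. Each of these differences subtracts the untreated difference between vectors, which was above 0 for all 10 members, so this is not a separate result. At day 7 no member passed either (0 of 10, against 0.0811%), and Dusp1 was the 1 member with an unadjusted p under 0.05, against 9.05% of all genes (-0.64 ± 0.22, limma adjusted p = 0.440). Without replicate 1 of the empty vector day 7 group, Egr1 passed there (-2.05, limma adjusted p = 0.00169). With only the 8 arrays compared in the fit, Egr1 passed at day 5 (limma adjusted p = 0.00604).

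Fosb and Nr4a1 differed widely between the replicates of some treated groups. Fosb in replicate 2 was 2.85 times its level in replicate 1 in TEL-AML1 day 5 cells, 7.98 times in empty vector day 5 cells, 4.56 times in TEL-AML1 day 7 cells and 6.79 times in empty vector day 7 cells. On the log2(intensity + 16) scale these gaps ranked 29, 1, 3 and 2 by absolute size among the 12337 genes of their groups. In untreated cells the Fosb gaps were -0.047 with TEL-AML1 and -0.13 with the empty vector, at ranks 7874 and 2862. The absolute Nr4a1 gap ranked 5 in TEL-AML1 day 7 cells, 23 in empty vector day 5 cells and 1 in empty vector day 7 cells, where replicate 2 was 8.0 times replicate 1. In TEL-AML1 day 5 cells the 2 arrays of Nr4a1 were nearly level (rank 9719).

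In the empty vector day 7 group 6 of 10 members had a gap over 1 on the log2 scale, against 0.511% of all genes there: Fos, Fosb, Jun, Egr1, Egr2 and Nr4a1, all brighter in replicate 2. In TEL-AML1 day 7 cells 2 members did, in each day 5 group 1, and in the untreated groups none. The sign was shared by most members, with 9 and 8 of 10 brighter in replicate 2 in TEL-AML1 and empty vector day 5 cells and 7 and 9 of 10 in TEL-AML1 and empty vector day 7 cells. Over all genes, between 45.1% and 54.02% were brighter in replicate 2 in these groups. Ier3 had gaps of 0.29 or less in every group.

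**Figure D4:**
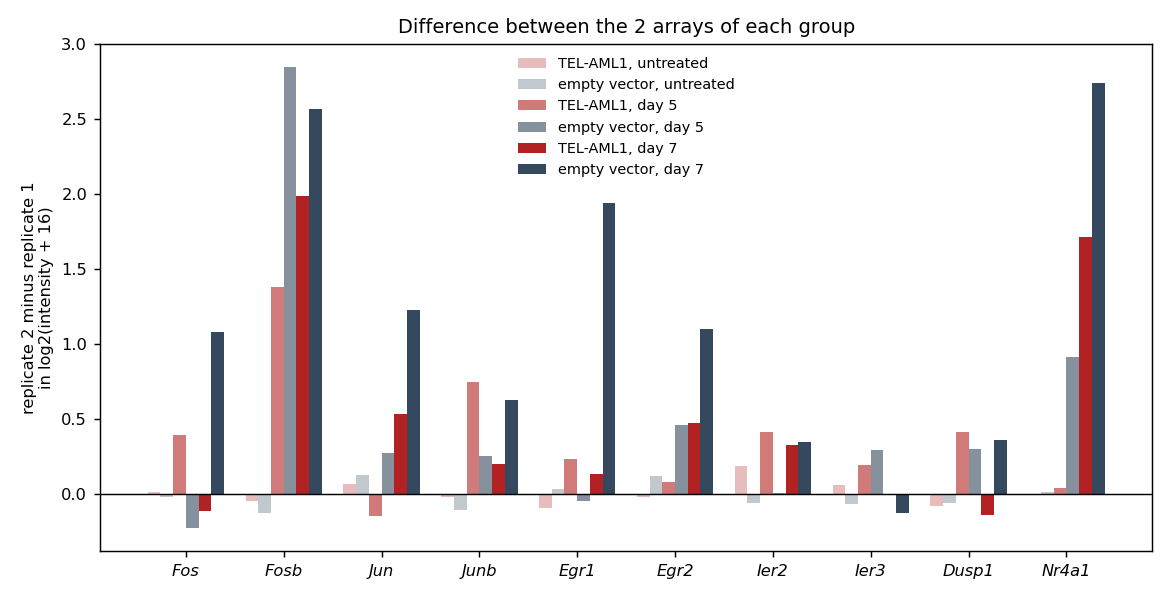
Replicate 2 minus replicate 1 in log2(intensity + 16) for each immediate early gene, with a bar for each of the 6 groups (red shades TEL-AML1, blue shades empty vector, darker with time). Bars of Fosb reach 2.85, in empty vector day 5 cells. In empty vector day 7 cells that of Nr4a1 reaches 2.74 and that of Egr1 1.94. The bars of Ier3 and Dusp1 reach 0.41 at most.

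Stroma levels also differed between replicates, and their part in these gaps was not tested. At day 7, replicate 2 had the higher stroma level (7.26 against 6.62 with TEL-AML1 and 7.69 against 6.87 with the empty vector), as well as the higher Fosb and Nr4a1. At day 5, replicate 2 had the lower stroma level (7.17 against 7.97 with TEL-AML1 and 7.93 against 8.23 with the empty vector) and the higher Fosb. The array with the highest stroma level, replicate 1 of empty vector day 5, had 128 for Fosb and 318 for Nr4a1. Of 12 heat shock genes listed, 9 were tested. At day 5 and day 7 against untreated cells, limma called 0 and 1 in TEL-AML1 cells and 2 and 2 in empty vector cells, all of them lower, with 1 and 2 and 3 and 3 at an unadjusted p under 0.05. Of all genes, 0.438% and 3.08% were called lower in TEL-AML1 cells and 7.16% and 9.19% in empty vector cells. Dnajb1, a cochaperone, was 0.17 ± 0.087 and 0.15 ± 0.087 higher in TEL-AML1 cells at day 5 and day 7, on both arrays, and missed the threshold (limma adjusted p = 0.404 and 0.359). Hspd1, a mitochondrial chaperone, was called lower in empty vector cells at day 5 (-0.42 ± 0.082, limma adjusted p = 0.0114) and day 7 (-0.59 ± 0.082, limma adjusted p = 0.00253).

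**Figure D5:**
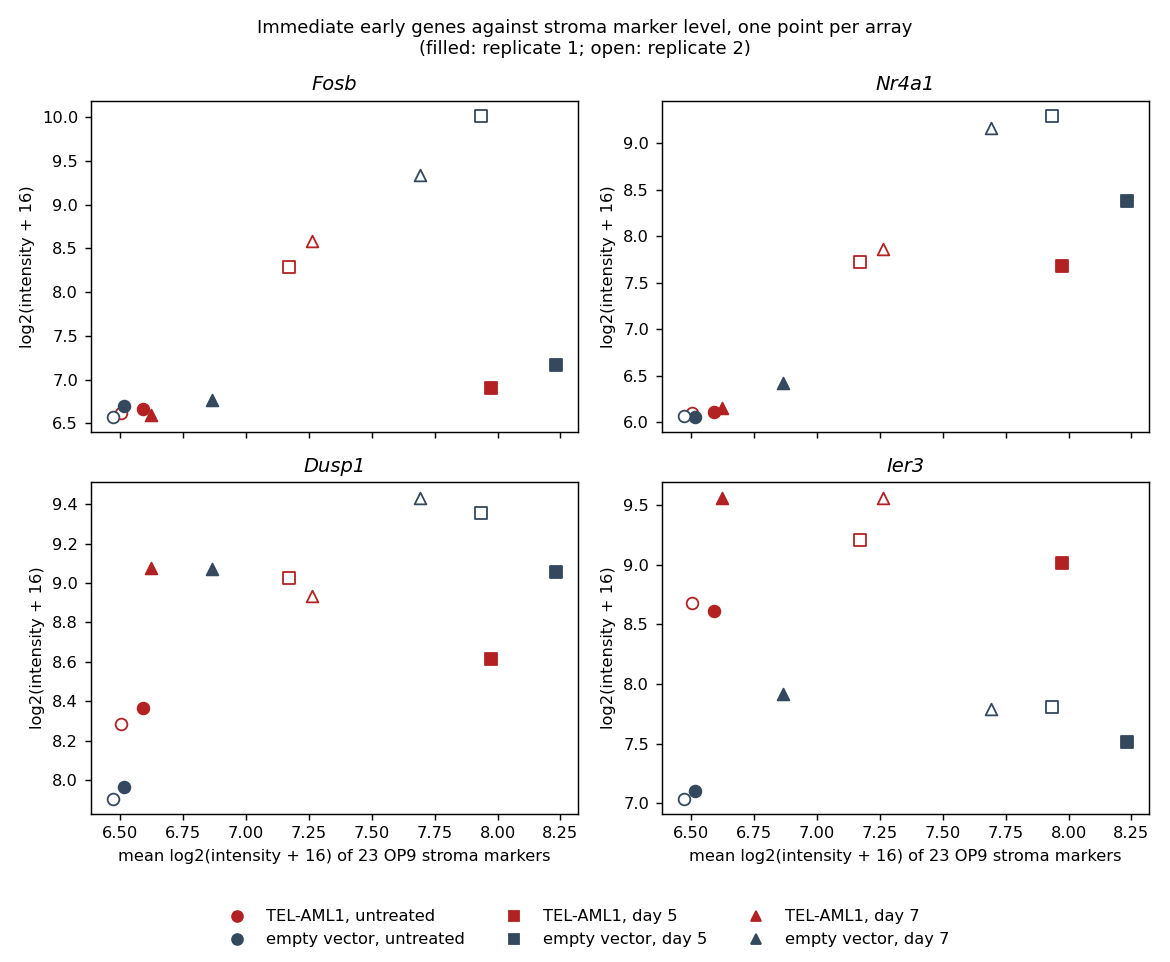
Level of Fosb, Nr4a1, Dusp1 and Ier3 against the mean of 23 OP9 stroma markers, both in log2(intensity + 16), with 1 point per array (red TEL-AML1, blue empty vector; circles untreated, squares day 5, triangles day 7; filled replicate 1, open replicate 2). The day 5 squares of replicate 1, at stroma levels of 7.97 and 8.23, lie low for Fosb, and all red Ier3 points lie above all blue ones.

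Genes with a pattern like that of Fos, Egr1, Dusp1 and Ier2 over the 12 arrays were looked up by Pearson correlation, given here as a description, since all genes share the arrays and the groups. For Fos the nearest were Mif, a cytokine (r = 0.84), Jun (0.82) and Mcrip1 (0.81). For Egr1 they were Bcl6, a transcriptional repressor (0.92), the RNA gene Snhg17 (0.88) and the proteasome subunit gene Psmb1 (0.88). The nearest member to Egr1 was Junb, at rank 23 (0.79). For Ier2 they were the cytokine gene Tnf (0.95), Ipmk (0.93) and Gcat (0.93), with Junb at rank 56 (0.85). For Dusp1 they were Rbm43 (0.95), Ddx39b (0.94) and Fbxo7 (0.94), with Nr4a1 as the nearest member only at rank 452 (0.75).

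A further 3 members were looked up after their values were seen. Nr4a1 was nearest to Sgk1, a kinase gene that serum and glucocorticoids induce (0.99), Fhl2 (0.97) and Thbs1, the thrombospondin gene that stands on the stroma list (0.97). Sgk1 had 133 and 122 in TEL-AML1 day 5 cells, 162 and 320 in empty vector day 5 cells, 59.1 and 134 in TEL-AML1 day 7 cells and 63.9 and 243 in empty vector day 7 cells, against 54.4 and 47.3 in TEL-AML1 and 50.3 and 48.8 in empty vector untreated cells. Fosb was nearest to Atf3 (0.96), an early stress factor, Trib1 (0.90) and Klf4 (0.89). Ier3 was nearest to Cd52 (0.98), Siglecf (0.97) and Far2 (0.97), and its nearest member was Fos at rank 2109 (0.42). Among pairs of members the highest correlations were Jun with Nr4a1 (0.90) and Fosb with Nr4a1 (0.88).

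Of 34 other immediate early genes listed, 33 had a probe set and 31 were tested. With TEL-AML1 against the empty vector 1 was higher in untreated cells, Zfp36, which encodes an mRNA decay factor, at 0.87 ± 0.14 (limma adjusted p = 0.00294). None passed at day 5, where 4 had an unadjusted p under 0.05, and 1 was higher at day 7, Rgs1, a brake on G protein signalling, at 0.67 ± 0.12 (limma adjusted p = 0.00533). The list's median difference was 0.040 in untreated cells, against 0.43 for the 10 members. In empty vector cells at day 5, 7 were higher and 4 lower, against 8.45% and 7.16% of all genes, with a median of 0.28. The nuclear receptor gene Nr4a2, a close relative of Nr4a1, was 0.61 ± 0.10 higher (limma adjusted p = 0.00703), Ccn1, a matrix protein gene, 2.63 ± 0.54 higher (limma adjusted p = 0.0136), and Ptgs2, the inducible cyclooxygenase gene, 0.88 ± 0.15 lower.

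At day 7 in empty vector cells 4 of the list were higher, among them Nr4a2 at 0.82 ± 0.10 (limma adjusted p = 0.00159), and 4 lower. Of all genes, 6.29% were higher and 9.19% lower there. In TEL-AML1 cells 0 of the list were higher and 2 lower at day 5, against 1.17% and 0.438% of all genes. The lower genes were Dusp2 at -0.68 ± 0.097 (limma adjusted p = 0.00482) and Zfp36 at -0.67 ± 0.14 (limma adjusted p = 0.0458). At day 7 in TEL-AML1 cells 3 of the list were higher and 3 lower, against 4.77% and 3.08% of all genes. Rgs2 was 1.18 ± 0.20 higher (limma adjusted p = 0.00728), and Nfkbia, the NF-kB inhibitor gene, 0.83 ± 0.14 higher (limma adjusted p = 0.00870). Dusp2, a nuclear phosphatase of MAP kinases, was lower in treated than in untreated cells in all 4 comparisons, by 0.63 to 0.74 on the log2 scale, and so moved opposite to Dusp1.

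Genes that report or restrain ERK signalling did not move as a block. Of 12 listed, 11 were tested. Over the mean of the 3 conditions 2 were called higher and 4 lower with TEL-AML1, against 9.85% and 12.8% of all genes. In the single conditions limma called 8.90% of all genes untreated, 7.32% at day 5 and 11.3% at day 7. In untreated cells 1 passed between vectors, Spry4, an inhibitor of receptor kinase signalling, at 83.2 in TEL-AML1 cells and 184 in empty vector cells (group means, -1.01 ± 0.17, limma adjusted p = 0.00427). At day 5 none passed, with 3 at an unadjusted p under 0.05. At day 7 the phosphatase gene Dusp4 was -1.09 ± 0.22 and the ETS factor gene Etv5 -0.63 ± 0.16 lower, and Spred1 0.63 ± 0.13 higher (limma adjusted p = 0.00937, 0.0292 and 0.0109). In empty vector cells at day 5, Errfi1, an inhibitor of the EGF receptor, was 3.04 ± 0.55 higher (limma adjusted p = 0.00830), and in TEL-AML1 cells at day 7 Etv5 was 1.11 ± 0.16 lower (limma adjusted p = 0.00295).

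Of 20 kinases and factors upstream of the immediate early promoters, 16 were tested. Over the mean of the 3 conditions 1 was called higher and 5 lower with TEL-AML1, against 9.85% and 12.8% of all genes. In untreated cells 2.74% of all genes were called higher and 6.16% lower. In untreated cells 0 were higher and 2 lower with TEL-AML1: Mapk8, which encodes the kinase JNK1, at -0.35 ± 0.093 (limma adjusted p = 0.0416) and Mrtfb, a partner of serum response factor, at -0.31 ± 0.083 (limma adjusted p = 0.0445). Mrtfb was also -0.40 ± 0.083 lower at day 5 (limma adjusted p = 0.0164), and at day 7 none passed. With treatment, Mrtfb was 0.32 ± 0.083 higher at day 5 in empty vector cells (limma adjusted p = 0.0268) and 0.31 ± 0.083 higher at day 7 in TEL-AML1 cells (limma adjusted p = 0.0462). Rps6ka5, the kinase MSK1 that acts on CREB and histone H3 at these promoters, was 0.36 ± 0.084 higher at day 7 in TEL-AML1 cells (limma adjusted p = 0.0300).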

How the data were processed

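The deposited table holds 1 intensity on a linear scale for each of 35556 probe sets on each of 12 arrays, and the authors' background correction, summarisation and normalization are not given in the sources used here. Per the labels, RNA was extracted with TRIzol and biotin-labelled by the standard Affymetrix protocol. Titles gave each sample's group and replicate number. The platform annotation gives 21218 probe sets 1 gene, 1881 several and 12457 none. Entrez identifiers of 21185 were found in the RefSeq gene table (GRCm38.p6), with 0 changes of symbol. A gene was represented by its brightest probe set over the 12 arrays.

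Values were taken as log2(intensity + 16) without further normalization, since array medians differed by 0.097 at most in log2 intensity without the added 16. Limma 3.58.1 in R 4.3.3 fitted 6 group means on all 12 arrays for the 12337 genes whose mean intensity passed the 40th percentile, with 6 residual and 4.22 prior degrees of freedom and Benjamini-Hochberg adjustment within each of 12 contrasts (threshold 0.05). The script was tested on simulated data with known changes. An array has no read depth, so its brightness and the number of arrays set the precision. The median standard error between groups was 0.099.

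Members, gene lists and tests were chosen with earlier results of these data known. Named genes are the 10 members and, of each other list and contrast, up to 4 genes with the smallest adjusted p. Genes most like Fos, Egr1, Dusp1 and Ier2 are the 3 with the highest Pearson correlation. The replicate gaps of both vectors correlated over genes at 0.43 untreated, 0.54 at day 5 and 0.38 at day 7, and between conditions at -0.24 to 0.16. Replicate numbers were therefore taken to pair the vectors within a condition only, and the fit with that block stands beside the results it changes. Marker lists for monocytes and macrophages, granulocytes, erythroid cells, progenitors, B lineage and OP9 stroma were fitted in the same way. A comparison of member proteins that had been planned was not run.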

Additional observations from a re-analysis of the deposited data

Results flagged for a closer look

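For 2 members, every array of one vector moved one way and every array of the other vector the opposite way at day 5. How many of all genes showed this pattern was not counted. Day 5 arrays lay apart from untreated ones in 57.6% of all genes with the empty vector and 51.7% with TEL-AML1. Egr1 had 291 and 345 in TEL-AML1 day 5 cells, against 884 and 828 in TEL-AML1 untreated cells, and 392 and 378 in empty vector day 5 cells, against 310 and 317 in empty vector untreated cells. The difference between the responses, fitted directly, was -1.67 ± 0.62 (unadjusted p = 0.0222, limma adjusted p = 0.609). Egr2 had 109 and 116 in TEL-AML1 day 5 cells, against 145 and 143 in TEL-AML1 untreated cells, and 129 and 183 in empty vector day 5 cells, against 112 and 123 in empty vector untreated cells. Its difference between the responses was -0.66 ± 0.41 (unadjusted p = 0.140, limma adjusted p = 0.714). Groups of 2 arrays are too small for a check on outlying samples.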

How the results depend on the processing

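All 28 alternatives to the mean vector comparison, and all those of each condition, kept Ier3 higher with TEL-AML1 past the threshold. The calls of Dusp1 in empty vector cells at both times and of Ier3 at day 7 in both vectors also held in all 18 alternatives of each. Counts of the 10 members called moved elsewhere. In untreated cells (1 between vectors) there were 2 with a filter at the 60th percentile, 2 with a trended and robust variance, 2 with a replicate block over all conditions, 4 with the block within each condition, 6 with array weights and 8 with only the groups compared. Of all genes, 1098 were called there, against 2606 with array weights and 2374 with only the groups compared. The block within each condition called 1491 and the block over all conditions 1082. The filter at the 60th percentile called 1043 and the trended and robust variance 1104. At day 5 between vectors (1) the block within each condition gave 3, and 1838 genes in all, against 903. Beyond these and Nr4a1 in the mean of the conditions, the blocks changed 1 other call, Ier2 at day 7 in TEL-AML1 cells, which passed with the block over all conditions (limma adjusted p = 0.0297).

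In TEL-AML1 cells at day 5 (0) there was 1 with median centring, with the 60th percentile filter, with a pseudocount of 64 and without the day 5 arrays numbered 1, and there were 2 with array weights (469 genes in all, against 198) and with only the groups compared (149). At day 7 (2, and 968 genes in all) there were 5 with array weights (2230 genes), with only the groups compared (1648 genes) and without the day 7 arrays numbered 2 (995 genes). In empty vector cells at day 5 (4, and 1926 genes) there were 2 without the day 5 arrays numbered 1 (1838 genes) or 2 (1016 genes), and 5 with array weights and with only the groups compared, where Fos passed (limma adjusted p = 0.0440 and 0.00691). At day 7 (2, and 1910 genes) the count moved without the day 7 arrays of either number, and for day 7 against day 5 (0) it moved without those numbered 2. Between vectors at day 7 (1) it moved without the day 7 arrays of either number. In the mean of the conditions (2) it moved without the day 5 arrays numbered 2 and without the day 7 arrays numbered 2. Counts over all genes moved in each of these fits too. For the response differences (0), Egr1 passed at day 5 with only the groups compared and at day 7 without the day 7 arrays numbered 1, 1 call each. These paired omissions were chosen after seeing the data.

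Leaving out 1 array at a time moved the member counts in the mean of the conditions, between vectors at day 7 and in TEL-AML1 cells at day 7. It also moved those in empty vector cells at day 5, at day 7 and for day 7 against day 5, and that for the response difference at day 7. Counts over all genes moved in these fits as well, and whether the members moved more was not tested. In such fits the lone array is assumed to vary like the other groups. Egr1 at day 7 between vectors ran from -0.65 to 1.29 and stood at -0.58 without both day 7 arrays numbered 1. Against untreated cells of the empty vector it ran from -1.38 to 0.56, and stood at 0.56 without the arrays numbered 1. The causes were not tested. Dim genes are limited by signal over background: Nr4a1 lay below the filter in untreated cells, so that its fold change depends on the pseudocount.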

Other observations

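Between vectors, the progenitor markers called higher with TEL-AML1 in untreated cells were Gata2 (0.52 ± 0.12, limma adjusted p = 0.0191), Cd53 (0.45 ± 0.11, 0.0251) and Spn (0.50 ± 0.14, 0.0486). At day 5 it was Coro1a (0.82 ± 0.13, limma adjusted p = 0.00341), and at day 7 Gata2 (0.61 ± 0.12, 0.00803), Coro1a (0.60 ± 0.13, 0.0131), Cd53 (0.48 ± 0.11, 0.0171) and Ptprc (0.48 ± 0.085, 0.00492). Of the monocyte and macrophage markers, Cd68 was higher with TEL-AML1 in untreated cells (0.35 ± 0.077, limma adjusted p = 0.0159) and at day 5 (0.41 ± 0.077, 0.00920). Itgam was higher at day 5 (0.42 ± 0.097, limma adjusted p = 0.0244) and day 7 (0.62 ± 0.097, 0.00259). Csf1r went the other way, at -0.25 untreated, -0.12 at day 5 and -0.19 at day 7, without a call in any single condition. Over the mean of the 3 conditions, 2 of these markers were called higher and 1 lower, Csf1r (-0.19 ± 0.045, limma adjusted p = 0.0131). Of all genes, 9.85% were called higher and 12.8% lower in that mean. Mpo, a granule enzyme gene of granulocytes and their precursors, was -0.37 ± 0.068 lower in TEL-AML1 untreated cells (limma adjusted p = 0.00658). The other tested granulocyte markers were higher there and missed the threshold: Ctsg (0.30 ± 0.084, limma adjusted p = 0.0575), Prtn3 (0.15 ± 0.11, 0.558) and Camp (0.15 ± 0.069, 0.266). Over the mean of the 3 conditions, Mpo was called lower and Ctsg higher (limma adjusted p = 0.00125 and 0.0253). Dntt, which encodes the terminal transferase of lymphoid precursors, was -1.37 ± 0.21 lower at day 5 and -1.52 ± 0.21 lower at day 7 with TEL-AML1 (limma adjusted p = 0.00347 and 0.00125). Its TEL-AML1 group means of 49.6 at day 5 and 48.4 at day 7 lay below the filter. Dntt passed that filter only through the empty vector groups, at 153 and 177, so the size of these differences depends on the pseudocount. Tfrc, the transferrin receptor gene, was 0.48 ± 0.11 and 0.43 ± 0.11 higher at the same times (limma adjusted p = 0.0214 and 0.0272).

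Against untreated cells, of 7 tested B lineage genes, Dntt was 0.91 ± 0.21 higher at day 5 and 1.04 ± 0.21 higher at day 7 in empty vector cells (limma adjusted p = 0.0195 and 0.0118). None was called in TEL-AML1 cells, where Dntt lay below the filter in every group. Ebf1 passed in empty vector cells at day 5, with 289 and 183 against 49.2 and 48.5 in untreated cells. It lay below the filter in untreated cells of both vectors and passed that filter through its treated arrays. On the TEL-AML1 day 5 arrays it had 200 and 76.8, where the stroma level was 7.97 and 7.17. Of 10 tested progenitor markers, 1 was higher and 2 lower at day 5 and 2 higher and 1 lower at day 7 in empty vector cells, and none was called in TEL-AML1 cells. Of 5 tested erythroid markers, Tfrc was lower in empty vector cells at both times, and Epor was higher in TEL-AML1 cells at day 7 (0.48 ± 0.12, limma adjusted p = 0.0386). None of 4 tested granulocyte markers was called with treatment. Of 7 tested monocyte and macrophage markers, 2 were lower in empty vector cells at each time, 1 was lower in TEL-AML1 cells at day 5, and 1 was higher and 1 lower at day 7. Beside these counts, limma called 15.6% and 15.5% of all genes in empty vector cells at day 5 and day 7. In TEL-AML1 cells it called 1.60% and 7.85%.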
